A study of Mus musculus with 4 samples.

Results

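The genes described here are 4 STAT factors (Stat6, Stat5a, Stat5b and Stat3), 4 inhibitors of the SOCS family (Cish, Socs1, Socs2 and Socs3) and 2 genes on the opposite strand, Gm17041 at Cish and Nab2 at Stat6. They were chosen by name from the pathway, and all 10 were found among the 50600 genes of the count tables. The 4 samples were bulk RNA-seq libraries of T-helper 2 (Th2) primary cells, which are CD4 T cells that secrete IL-4, IL-5 and IL-13, from mouse strain C57BL/6NJ. The labels describe the assay as total RNA-seq, whereas its library protocol is named for poly(A) RNA. The 4 libraries formed 1 group, with no other genotype, treatment or time. The file headers name a sort and 72 h, and the labels give no sex or age, and list a biosample of its own for each library and the same donor entry for all 4. With no second condition, the comparisons were between genes within a library and between libraries. The spread between libraries may include technical differences, and the labels do not show whether it covers differences between animals.

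STAT proteins are transcription factors that wait in the cytoplasm until a Janus kinase bound to a cytokine receptor phosphorylates them, after which they dimerise and enter the nucleus. In Th2 cells IL-4 acts through STAT6, which raises the Th2 regulator GATA3, while IL-2 acts through STAT5A and STAT5B, and IL-6, IL-10 and IL-21 act largely through STAT3. SOCS proteins are made in response to STAT activity and act back on the receptors and kinases. CIS, the product of Cish, is a classic STAT5 target.

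The total gene count was 1274431 to 1857433 per library. A count of 0 allowed up to 3 counts, an upper limit on 1 side, or 1.62 to 2.35 CPM. CPM are counts scaled to the same total in every library. The exact Poisson interval used below reaches 3.69 for a count of 0. These limits and the intervals below cover counting error only. TPM, which divides counts by exon length, counts here only the fragments that the authors assigned to the annotated strand of a gene. Genes with an exon opposite an exon of a gene on the other strand held 79.9% to 91.5% of the counts of a library, and 98 of the 100 top genes by counts had one. A level is therefore given as an own-strand level and was not taken as the amount of mRNA. TPM also depends on which genes make up its total. Rescaled over genes with no opposite exon, the mean level of Stat6 was 106 TPM in place of 13.4, that of Stat3 216 in place of 26.6 and that of Gm17041 96641 in place of 10828. All 7 T cell markers and all 7 Th2 markers had counts (117 to 686 and 271 to 668 in sum per library). Some had very few in replicate 3, such as 1 of Cd3d, 4 of Cd28 and 1 of Il5. Others had more there, such as 22 of Cd4 and 84 of Il4. None of the 4 CD8 and natural killer markers had any, and of the B cell list, Cd79a had 35, 41, 9 and 2 counts in replicates 1 to 4 (20.5, 21.3, 6.13 and 1.69 TPM), Cd79b had 1 count in all, and the others, such as Ms4a1 and Pax5, were at 0. The myeloid list summed to 542 to 838 counts, with 542 to 827 of Csf1r, which has an exon opposite Hmgxb3, and 16, 11, 33 and 0 of Cd68, which has none (10.9, 6.63, 26.1 and 0 TPM). Lyz2, Itgam and Adgre1 were at 0, and of the red cell list only Alas2 had counts (11 to 32). In bulk samples, fewer cells of a type and less RNA per cell cannot be told apart.

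Of the 10 genes, 8 had at least 1 TPM in every library, against 12.5% of all genes and 20.9% of protein-coding genes. The 2 others were Socs1, with 0.814 TPM in replicate 3, and Socs2, with 0 TPM in replicate 2 and 0.521 TPM in replicate 3. The 8 STAT and SOCS genes had a median level of 11.1 TPM, averaged over the libraries with an SD of 7.06 (n = 4), while the median of all protein-coding genes was 0 TPM in each library. In order of mean level the genes ran Gm17041, Nab2, Stat3, Socs1, Stat6, Stat5b, Stat5a, Socs3, Cish and Socs2. Only Gm17041, Nab2 and Socs2 stood apart from the next gene in this order. From Stat3 down to Cish each gene's range over the 4 libraries overlapped that of the next.

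**Figure D1:**
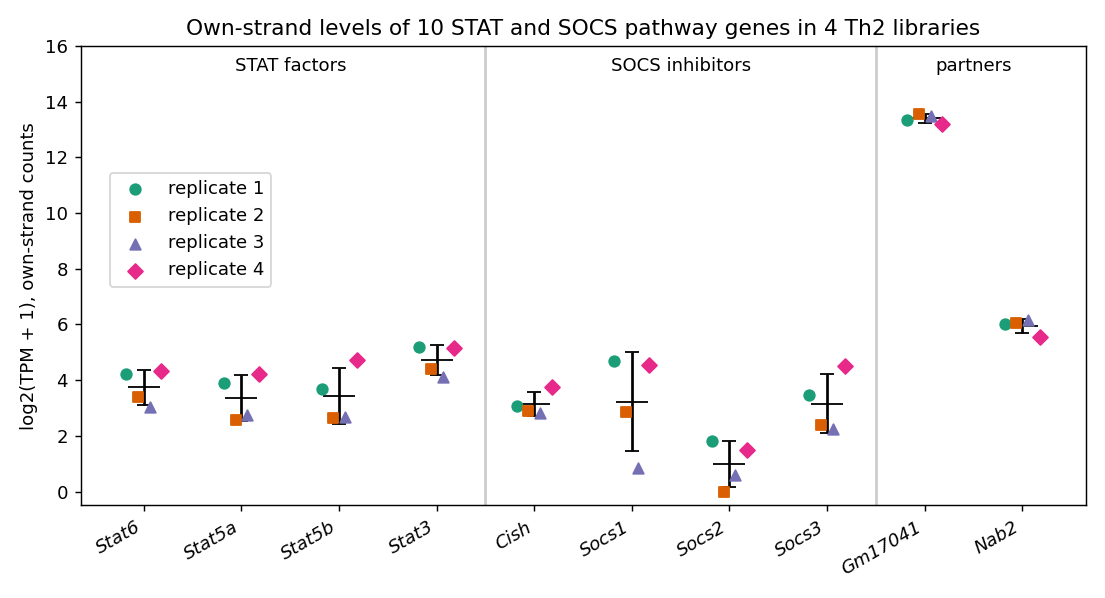
Own-strand level, log2(TPM + 1), of the 10 genes in the 4 Th2 libraries. Each symbol is 1 library, and bars give the mean and SD (n = 4). Gm17041 lies between 9486 and 12104 TPM, while the STAT and SOCS genes lie between 0 and 35.3 TPM.

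Stat6 encodes the factor that carries the IL-4 signal. Stat6 (ENSMUSG00000002147.18, chromosome 10, 127642986 to 127660957, mm10, plus strand) had 91, 55, 32 and 68 counts in replicates 1 to 4, or 17.7, 9.47, 7.22 and 19.1 TPM. Replicates 1 and 4 were the high ones and replicate 3 the lowest. Nab2, the gene of a corepressor of EGR transcription factors, runs towards Stat6 on the minus strand (ENSMUSG00000025402.12, 127660918 to 127668568). The last exons of Stat6 and Nab2 share 40 bp (127660918 to 127660957), all of it noncoding in both genes. Nab2 had 221, 253, 208 and 110 counts, or 64.2, 65.2, 70.2 and 46.1 TPM. For Nab2 replicate 4 was the lowest library and the other replicates lay close together.

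Nab2 stood above Stat6 in 4 of 4 libraries. The log2 ratio of Nab2 to Stat6 was 1.80, 2.66, 3.12 and 1.23 in replicates 1 to 4, with a mean of 2.20 ± 0.84 (SD, n = 4; exact two-sided sign-flip permutation p = 0.12, 0.22 after Benjamini-Hochberg adjustment over 16 gene pairs). With 4 libraries this is the smallest p the test can give, so no pair can pass 0.05. Nab2 held 70.8% of the counts of the pair in replicate 1 (95% Wilson interval 65.6 to 75.6), 82.1% in replicate 2 (77.5 to 86.0), 86.7% in replicate 3 (81.8 to 90.4) and 61.8% in replicate 4 (54.5 to 68.6). The share thus differed between libraries beyond counting error, being lowest in replicate 4. The overlap is 1.36% of the exon length of Nab2.

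Nab2 itself has a far denser gene across from it. Gm16229, an antisense gene (ENSMUSG00000085731.1, chromosome 10, 127663839 to 127665484, plus strand), shares 1050 of its 1232 bp with exons of Nab2, of which 864 bp lie opposite coding sequence of a transcript of Nab2. It lies on the strand of Stat6, beyond the end of Stat6. Gm16229 had 1981, 2682, 2208 and 1621 counts, and 1607 ± 169 TPM (SD, n = 4). Per kb of exon Gm16229 had 21.4, 25.3, 25.3 and 35.2 times the counts of Nab2. Nemp1, a nuclear envelope protein gene that shares 151 bp with Nab2 at the other end, had 71, 74, 60 and 36 counts. Gm16229 and Nemp1 were taken up after their values were seen.

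**Figure D2:**
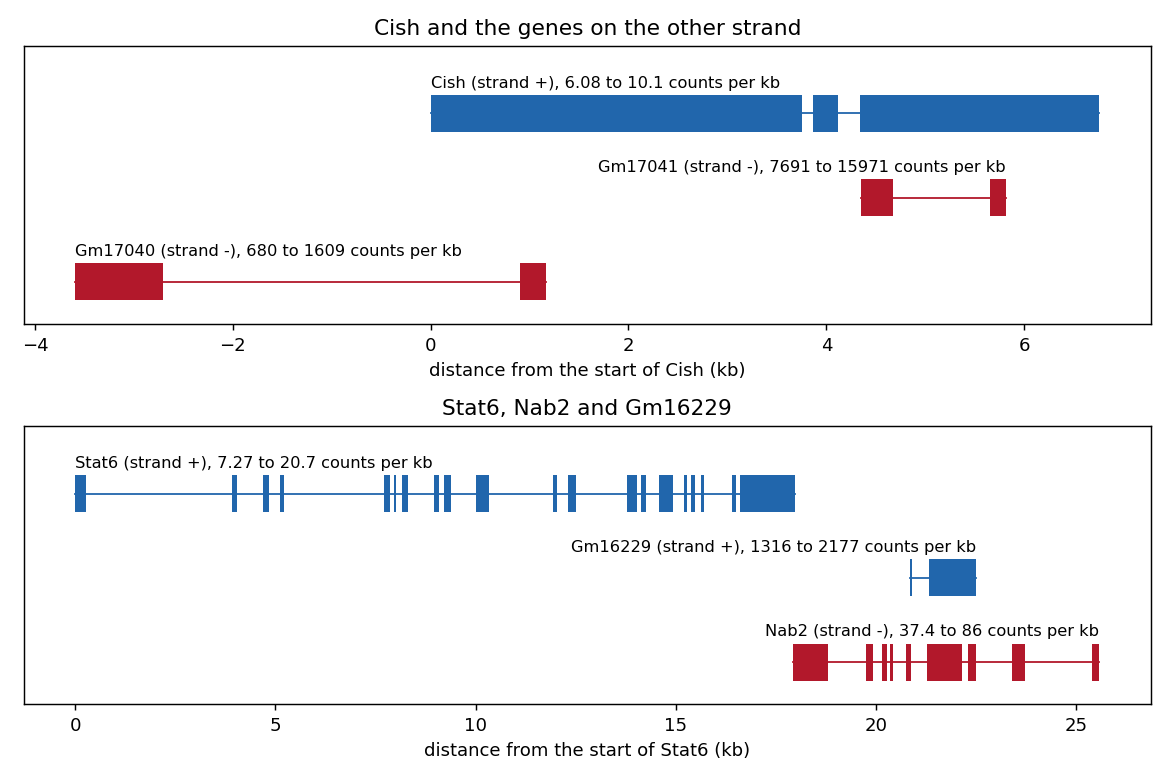
Exons (boxes) of the genes at Cish and at Stat6, by distance in kb from the start of Cish or Stat6, with plus-strand genes in blue and minus-strand genes in red. The labels give the lowest and highest counts per kb of exon over the 4 libraries, such as 7691 to 15971 for Gm17041 and 6.08 to 10.1 for Cish.

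Stat5b, Stat5a and Stat3 lie side by side on chromosome 11. Stat5b (ENSMUSG00000020919.11, 100780731 to 100850724, minus strand) and Stat5a (ENSMUSG00000004043.14, 100859351 to 100885169, plus strand) point away from each other, 8626 bp apart, and encode closely related factors that IL-2 activates. Stat5a had 115, 46, 41 and 101 counts in replicates 1 to 4, or 13.8, 4.89, 5.71 and 17.5 TPM. Stat5b had 77, 38, 30 and 115 counts, or 11.9, 5.20, 5.38 and 25.6 TPM. Both were high in replicates 1 and 4, and in both these stood above replicates 2 and 3 with no overlap. Without replicate 4 the mean of Stat5b was 7.49 TPM, against 12.02 TPM with it.

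The STAT5 genes did not differ from each other beyond the spread. The log2 ratio of Stat5a to Stat5b was -0.08 ± 0.32 (SD, n = 4), above 0 in 2 libraries and below 0 in the other 2 (p = 0.75 by the exact test). CPM, which is not divided by length, gave 0.27, and TPM without replicate 4 gave 0.065. Their transcripts are partly alike. Of the distinct runs of 50 bases in Stat5b transcripts, 10.98% also occur in Stat5a transcripts, and 8.21% the other way, so fragments from these stretches could be assigned to either gene or dropped. No other 2 of the 10 genes share such a run.

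Stat3 (ENSMUSG00000004040.16, 100885098 to 100939540, minus strand), the factor downstream of IL-6, IL-10 and IL-21, had 394, 251, 158 and 268 counts, or 35.3, 19.97, 16.5 and 34.7 TPM. Replicates 1 and 4 were again the high ones. Stat3 runs towards Stat5a, and their last exons share 72 bp (100885098 to 100885169) of noncoding sequence. Stat3 was the highest of the 4 STAT genes in every library. Its log2 ratio was 1.37 ± 0.36 to Stat5a and 1.28 ± 0.59 to Stat5b, both positive in every library (p = 0.12 each by the exact sign-flip test). Stat6 stood below Stat3 by a nearly constant amount, with log2 ratios of -0.961, -1.002, -1.088 and -0.832 and a mean of -0.97 ± 0.11, below 0 in all 4 (exact sign-flip p = 0.12). Stat6 exceeded Stat5a by 0.39 ± 0.31 in 4 of 4 libraries (exact sign-flip p = 0.12), while CPM, with no division by length, gave -0.25. Against Stat5b the ratio of Stat6 was 0.31 ± 0.51 and negative in replicate 4 (exact sign-flip p = 0.38).

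The Cish locus held the largest contrast. Cish (ENSMUSG00000032578.7, chromosome 9, 107296026 to 107302784, plus strand) had 56, 54, 39 and 65 counts in replicates 1 to 4, or 7.45, 6.38, 6.03 and 12.5 TPM. Its value in replicate 4 was the highest, and the other replicates lay close together. Gm17041 (ENSMUSG00000090570.1, 107300380 to 107301838, minus strand), an antisense gene of 479 bp in 2 exons, had 5759, 7650, 5523 and 3684 counts, or 10273, 12104, 11449 and 9486 TPM. Here replicate 2 was the highest and replicate 4 the lowest. All 479 bp lie opposite exons of Cish. Exon 1 (107301681 to 107301838) lies opposite the 3′ untranslated region of a coding transcript of Cish, and all 321 bp of exon 2 (107300380 to 107300700) opposite its coding sequence.

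The stretch of exon 2 that is opposite bases coding in every coding transcript of Cish is shown for both strands (chr9:107300421-107300533, mm10, 113 bases, sequence from GENCODE M21 transcripts), since fragments of either gene come from these same base pairs. It encodes part of the SH2 domain, with which CIS binds phosphorylated receptors. Capitals mark bases that are coding in all those transcripts of Cish, or lie opposite them, here every base.
Gm17041: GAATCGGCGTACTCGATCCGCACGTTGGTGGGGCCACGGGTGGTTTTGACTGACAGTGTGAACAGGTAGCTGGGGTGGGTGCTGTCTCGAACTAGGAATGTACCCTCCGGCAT
Cish: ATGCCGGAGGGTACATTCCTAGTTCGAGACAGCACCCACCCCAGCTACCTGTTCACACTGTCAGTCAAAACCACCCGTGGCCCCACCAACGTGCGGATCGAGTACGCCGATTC

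Gm17041 exceeded Cish in 4 of 4 libraries, by 10.26 ± 0.57 on the log2(TPM + 1) scale (SD, n = 4; exact sign-flip p = 0.12, adjusted 0.22). Of the counts of the pair, Gm17041 held 99.0% in replicate 1 (95% Wilson interval 98.8 to 99.3), 99.3% in replicate 2 (99.1 to 99.5), 99.3% in replicate 3 (99.04 to 99.5) and 98.3% in replicate 4 (97.8 to 98.6). Per kb of exon Gm17041 had 1378, 1898, 1898 and 760 times the counts of Cish. A second minus-strand gene, the transcribed pseudogene Gm17040 (ENSMUSG00000091366.1, 107292435 to 107297192), shares 261 of its 1150 bp with exons of Cish, near the start of Cish. Gm17040 had 1494, 1850, 1396 and 782 counts, highest in replicate 2 and lowest in replicate 4 as for Gm17041. It was taken up after its values were seen. Counts from the shared sequence were assigned to Cish, Gm17041 or Gm17040 by strand alone. Which RNA they came from thus rests on the strand setting. The labels do not state whether the strand setting of the counting matches the library kit. If it did not, the counts of Gm17041 would be fragments of the Cish strand. The share, the ratio and the ranks would then be reversed or lose their meaning, as would those of Nab2 and Gm16229 over their shared exons. This limit holds for every gene given here, also for those with no opposite exon. Their counts would then be fragments of the other strand, and levels, ratios, orders and counts of 0 would lose their meaning.

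Such a contrast was common in these libraries. Of 263 noncoding genes with at least 80% of their exon length opposite exons of 1 longer protein-coding gene and at least 20 counts in the pair, 204 (77.6%) had more counts per kb than that gene in every library, so the direction at Cish is that of most such pairs. Among the 263, Gm17041 ranked 4 by counts, 3 by counts per kb and 29 by its ratio to the gene opposite.

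The other SOCS genes have no exon opposite another gene. Socs1 (ENSMUSG00000038037.4, chromosome 16, 10783808 to 10785536, minus strand), whose product blocks Janus kinases directly, had 35, 10, 1 and 22 counts in replicates 1 to 4, or 24.5, 6.21, 0.814 and 22.2 TPM. It was the most uneven STAT or SOCS gene over the libraries among those with a count in each, and the single count of replicate 3 has an exact Poisson interval of 0.0253 to 5.57. Socs3 (ENSMUSG00000053113.3, chromosome 11, 117966079 to 117970047, minus strand), which restrains gp130 receptors and STAT3 signalling, had 34, 16, 11 and 51 counts, or 10.1, 4.19, 3.78 and 21.8 TPM. Its mean was 9.94 TPM, or 6.01 TPM without replicate 4. Socs2 (ENSMUSG00000020027.18, chromosome 10, 95385362 to 95417180, minus strand), best known as the brake on growth hormone signalling, had 28, 0, 5 and 14 counts, or 2.51, 0, 0.521 and 1.81 TPM. Its mean was 1.21 TPM, or 0.778 TPM without replicate 1. In all of Socs1, Socs2 and Socs3 replicates 1 and 4 lay above replicates 2 and 3.

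Socs2 was the lowest of the SOCS genes on the TPM scale, in every library. The log2 ratio of Socs2 to Cish was -2.16 ± 0.67 and that of Socs2 to Socs1 -2.25 ± 1.34, both below 0 in every library (p = 0.12 each by the exact test). The ratio of Socs1 to Cish was 0.10 ± 1.52 and that of Socs3 to Cish 0.02 ± 0.65, both above 0 in 2 libraries and below 0 in 2 (p = 1.00 each by the exact test). CPM gave -2.11 for Socs1 to Cish and -1.09 for Socs3 to Cish, each with 1 sign in all 4 libraries (p = 0.12 each by the exact test). Cish has 6419 bp of exon, against 1220 bp for Socs1 and 2891 bp for Socs3. For Socs2 to Socs1 CPM gave -0.55 ± 1.67 without 1 sign in all libraries (exact p = 0.62), while Socs2 to Cish stayed below 0 in all 4, at -2.66 ± 1.66. The log2 ratio of Socs3 to Stat3 was -1.56 ± 0.62, below 0 in all 4 libraries (exact p = 0.12). Socs3 and Socs1 (ratio -0.08 ± 1.10, p = 0.88 by the exact test), Socs1 and Stat6 (-0.51 ± 1.19, exact p = 0.62) and Cish and Stat5a (-0.22 ± 0.51, exact p = 0.50) were not told apart.

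**Figure D3:**
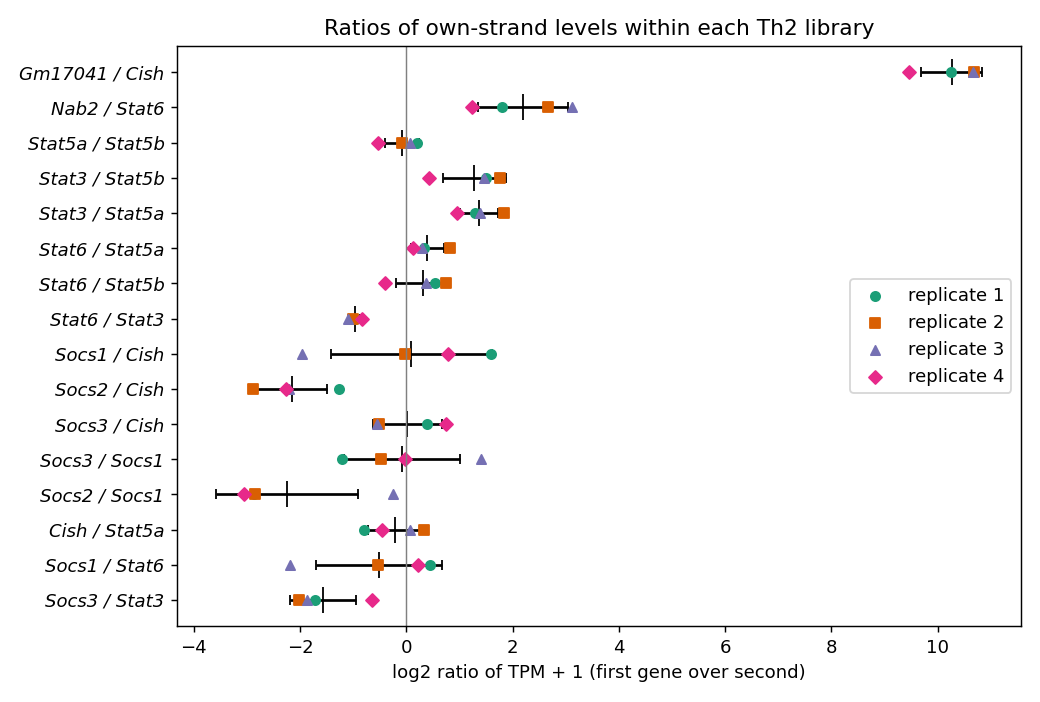
Log2 ratio of TPM + 1 for 16 gene pairs, first gene over second, within each Th2 library. Symbols are libraries, and bars give the mean and SD (n = 4). Gm17041 lies 9.46 to 10.7 above Cish, and the ratios of Socs1 and Socs3 to Cish lie on both sides of 0.

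SOCS genes are known for STAT binding sites near their start sites, so these sequences are shown for Cish, Socs3 and Socs1. RefSeq windows of 250 bases before to 50 bases after a start site (GRCm38.p6, which has the coordinates of mm10) were found for 8 of the 10 genes, not for Socs2 and Gm17041. They were searched on both strands for TTCNNNGAA, the core that STAT5 and STAT3 bind, the wider form that STAT6 prefers (TTC and GAA with any 4 bases between them), and an interferon-response form (GAAA, any 2 bases, GAAA). These 3 patterns occur in 8.3%, 6.95% and 3.44% of 32851 windows. The Cish window (chr9:107296409-107296708, plus strand) holds TTCNNNGAA at 2 places, starting at bases 1 and 12 counted from the start site, which 0.457% of windows match or exceed. The Socs3 window (chr11:117969317-117969616, minus strand) holds 1 such match, 154 bases before the start site. The Socs1 window (chr16:10785487-10785786, minus strand) holds the interferon-response form at 2 places that overlap each other, starting 83 and 77 bases before the start site. The windows of Cish, Socs3, Stat5a and Nab2 lie wholly inside the gene bounds given above. The outermost annotated starts of these genes were therefore not searched. Capitals mark the matches.
Cish: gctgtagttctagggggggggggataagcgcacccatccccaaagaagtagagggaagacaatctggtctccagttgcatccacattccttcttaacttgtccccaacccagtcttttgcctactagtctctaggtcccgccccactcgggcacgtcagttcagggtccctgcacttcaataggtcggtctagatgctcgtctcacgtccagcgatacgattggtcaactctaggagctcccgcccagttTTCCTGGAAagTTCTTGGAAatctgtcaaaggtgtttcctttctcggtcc
Socs3: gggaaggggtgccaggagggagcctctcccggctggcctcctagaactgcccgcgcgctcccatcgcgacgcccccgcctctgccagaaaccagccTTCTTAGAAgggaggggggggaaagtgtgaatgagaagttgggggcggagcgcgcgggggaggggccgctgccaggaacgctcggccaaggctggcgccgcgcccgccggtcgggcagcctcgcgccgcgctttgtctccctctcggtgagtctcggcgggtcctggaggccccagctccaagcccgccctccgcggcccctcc
Socs1: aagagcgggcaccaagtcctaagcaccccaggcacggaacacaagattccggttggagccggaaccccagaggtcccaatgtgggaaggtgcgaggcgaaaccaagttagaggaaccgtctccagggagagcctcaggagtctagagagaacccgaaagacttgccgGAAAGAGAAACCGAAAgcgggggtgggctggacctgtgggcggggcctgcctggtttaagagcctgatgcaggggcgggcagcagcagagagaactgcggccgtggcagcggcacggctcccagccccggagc
The windows of Stat6, Stat5a, Stat5b, Stat3 and Nab2 hold none of the 3 patterns in these letters. A match describes the sequence only. These libraries hold no binding data.

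Across the libraries, 9 of the 10 genes varied beyond Poisson sampling (chi-square test with TMM-scaled library sizes, Benjamini-Hochberg 0.05 over 7752 genes), against a background of 88.2% of genes, and 85.2% of genes with a mean count between 10 and 100. The strongest of the STAT and SOCS genes was Stat5b (adjusted p = 4.33e-14 by this chi-square test) and the weakest call was Stat6 (adjusted p = 0.0057 by the same test, and 0.26 without replicate 3). Cish was the exception, with an adjusted p of 0.12 by the chi-square test. With total counts in place of TMM factors Cish passed as well, at 0.0028. Measured against the common dispersion of all genes, a biological coefficient of variation of 0.575, 0 of the 10 genes and 6 of the 7752 passed the same threshold. Without adjustment, 0 of the 10 and 452 of the 7752 had a p under 0.05 in this negative binomial form of the test. The common dispersion was estimated from these same libraries, so a test against it passes few genes by construction. The variation called is thus beyond counting noise, while the negative binomial form says little about the 10 genes. Gene-wise biological coefficients of variation were estimated with edgeR. They were 0.308 for Gm17041, 0.346 for Stat3, 0.376 for Nab2, 0.476 for Cish, 0.796 for Socs1 and 0.905 for Socs2. The estimates leave out counting noise and are drawn towards those of other genes, so they do not rank the genes by observed spread. Cish had a higher estimate than Gm17041 and Nab2, although with TMM factors they varied beyond Poisson sampling and Cish did not.

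The STAT and SOCS genes other than Cish differed from the genes opposite Cish, Stat6 or Nab2 in which libraries were high. Stat5a and Stat3, which lie opposite each other, were alike in this. With TMM scaling, replicates 1 and 4 were the 2 highest libraries for 7 of the 8 STAT and SOCS genes, all but Cish. The background was 38.2% of all tested genes and 58.8% of tested genes with no exon opposite another gene. Stat5b deviated from its 4-library mean by 0.15, -0.57, -0.66 and 1.08 (log2 CPM, replicates 1 to 4), Stat5a by 0.45, -0.57, -0.49 and 0.62, and Socs3 by 0.22, -0.55, -0.82 and 1.15. For Gm17041 and Nab2, and for Gm17040, Gm16229 and Nemp1, replicates 2 and 3 were the 2 highest. That order was found in 29.7% of all tested genes, 49.3% of those with an opposite exon and 9.67% of those with none. Gm17041 deviated by -0.22, 0.47, 0.26 and -0.51, and Nab2 by -0.07, 0.41, 0.38 and -0.71. Stat6, Stat5a and Stat3, which share only 40 or 72 bp with a gene on the other strand, were highest in replicates 1 and 4, as were 18.2% of tested genes with an opposite exon. TMM scaling moved log2 CPM by -0.12, 0.23, 0.12 and -0.24 in replicates 1 to 4 against total counts. With total counts Cish too was highest in replicates 1 and 4, making 8 of 8 STAT and SOCS genes, against 46.2% of all tested genes, 67.8% of those with no opposite exon and 25.1% of those with one. Gm17041, Nab2, Gm17040 and Gm16229 were still highest in replicates 2 and 3, while Nemp1 was highest in replicates 1 and 3, against a background for replicates 2 and 3 of 17.7% of all genes, 29% of those with an opposite exon and 6.11% of those with none.

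Moving with these patterns, genes with no opposite exon held 16.4% and 20.1% of the counts in replicates 1 and 4 and 8.54% and 9.14% in replicates 2 and 3. The sum of the 7 T cell markers was 634, 267, 117 and 686 counts in replicates 1 to 4. The part of either in the levels above was not tested, nor was that of the B cell and myeloid markers.

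**Figure D4:**
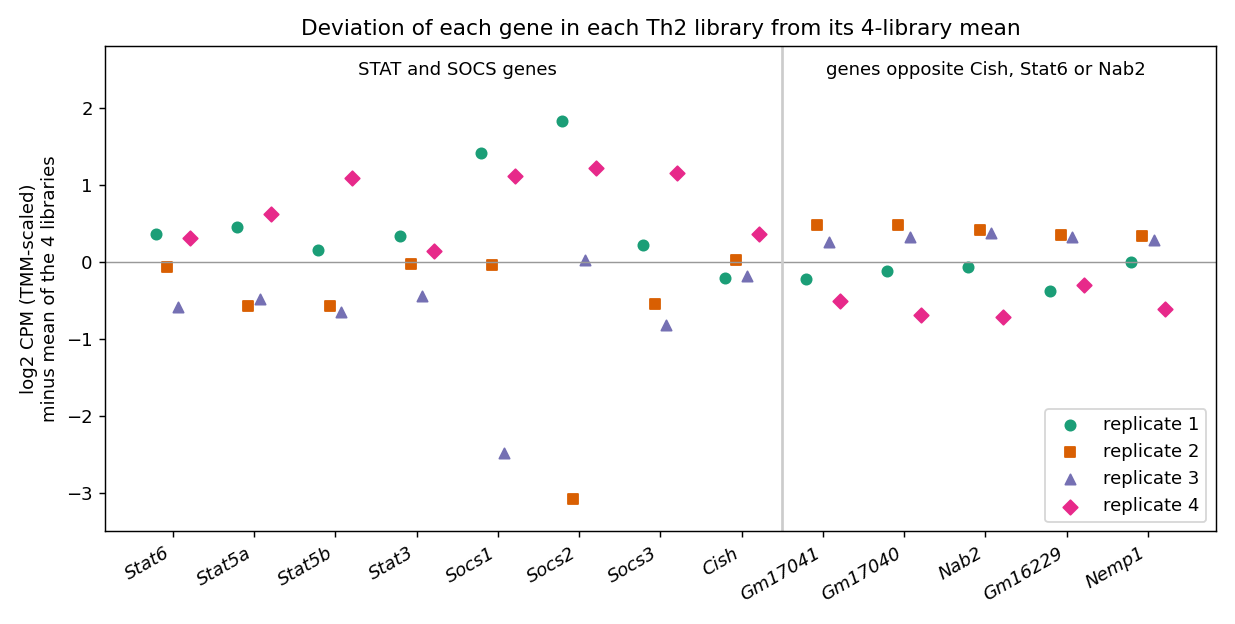
Deviation of log2 CPM (TMM-scaled) from the mean of the 4 libraries for the 8 STAT and SOCS genes and the 5 genes opposite Cish, Stat6 or Nab2. Each symbol is 1 Th2 library. Replicates 1 and 4 lie highest for the STAT and SOCS genes other than Cish, and replicates 2 and 3 for the 5 opposite genes.

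The genes whose deviations over the 4 libraries lay nearest to each gene were also found, by root mean square difference in log2 CPM, taking genes that averaged at least 50 counts. They were Coro1a, Mlec and Cd82 for Stat5a (0.029 to 0.047), and Capzb, Lta and Clic4 for Stat5b (0.046 to 0.055). They were Mybbp1a and Dnaja1 for both Stat6 and Stat3 (0.067 to 0.071), followed by Pafah1b1 for Stat6 and by Chd8 for Stat3. For Socs3 they were Cct3, Dars and Stat5b (0.052 to 0.097), out of 54 genes within 0.2. Lpp, 4931406P16Rik and Cops6 were nearest to Cish, Keap1, Shc4 and Chadl to Gm17041, and Gm11592, Ypel1 and Aldh16a1 to Nab2. Socs1 (nearest Calm2, Ubxn4 and Phb2, 0.258 and more) and Socs2 (nearest Rpa1, Kif11 and Tm9sf3, 0.906 and more) had no near match. With 4 libraries many genes lie close, such as 910 within 0.2 of Gm17041 and 111 within 0.2 of Stat5a, so likeness is weak information.

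Of 71 further genes of the pathway, 36 had at least 1 TPM in every library and 6 had no count in any, against 20.9% at that level among protein-coding genes. Their median level was 4.55 ± 3.67 TPM (SD, n = 4 libraries), and 2.83 TPM without replicate 4. Of the 42 that averaged at least 10 counts, 40 passed the chi-square test, against the 88.2% of all tested genes. Replicates 1 and 4 were the 2 highest for 31 of the 42 and replicates 2 and 3 for 4, against 38.2% and 29.7% of all tested genes. Among tested genes with no opposite exon, as most of the 71 are, these shares were 58.8% and 9.67%. Among those with one they were 18.2% and 49.3%. Of the 71 genes, 18 have an exon opposite another gene, as do 4801 of 21764 protein-coding genes. Among the 10 genes above 6 have one, a number set in part by the choice of opposite-strand partners.

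Among the Janus kinases, which phosphorylate the STAT factors, Jak2 led with 77.1, 21.2, 16.2 and 126 TPM in replicates 1 to 4. Its mean was 60.03 TPM, or 38.2 TPM without replicate 4. Jak3, which pairs with the common gamma chain, had 8.93 ± 7.07 TPM (5.60 TPM without replicate 4), Jak1 7.75 ± 5.66 TPM and Tyk2 2.03 ± 1.25 TPM (SD, n = 4 each). Of the receptors of the common gamma chain family, IL-4 and IL-13, Il2ra, which gives the IL-2 receptor its high affinity and is a STAT5 target, had 199.6, 56.7, 54.1 and 264 TPM. Il2rb had 22.03 ± 11.1 TPM and Il21r 18.8 ± 12.5 TPM, and Il13ra1, part of the type II IL-4 receptor, had 0 counts in all 4 libraries. None of Jak2, Il2ra, Il2rb and Il21r has an opposite exon. Il4ra, the chain through which IL-4 reaches STAT6, had 23.8, 4.55, 7.61 and 33.1 TPM and shares 571 bp with Gm44876 on the other strand.

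Stat2 and Stat4 had lower mean levels than the 4 STAT genes above, a difference that was not tested. Stat2, which acts in type I interferon signalling, had 6.90 ± 3.14 TPM, and Stat4, the factor of IL-12 and Th1 cells, 2.14 ± 0.344 TPM from 7 to 10 counts per library. No other SOCS gene reached 1 TPM in every library. Socs7 had 1.10 ± 0.965 TPM, Socs4 1.03 ± 1.37 TPM, Socs5 0.432 ± 0.557 TPM and Socs6 0.176 ± 0.245 TPM, each from at most 17 counts in a library. Without the highest library these means were 0.680, 0.354, 0.187 and 0.0614 TPM. Of the further inhibitors, the phosphatase genes Ptpn2, Ptpn6 and Ptprc were the highest at 24.9 ± 20.4, 20.3 ± 11.1 and 18.2 ± 19.0 TPM, of which Ptpn2 averaged 15.8 and Ptprc 9.53 TPM without replicate 4. Ptpn6 shares 195 bp with Gm20531, and Pias3, the lowest, had 9 counts in replicate 2 and 0 elsewhere.

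Among other receptors that signal through STATs, Il12rb2 led at 14.7 ± 7.52 TPM but shares 1519 bp with Serbp1 on the other strand. Il6ra, the IL-6 receptor chain, had 6.72, 6.05, 6.89 and 9.70 TPM, shares 242 bp with Gm42809, and did not pass the test of variation (adjusted p = 0.41 by the chi-square test). Il10ra had 6.77 ± 3.74 TPM, and Lifr and Osmr had 0 counts in all 4 libraries. Of the cytokines, the STAT3-activating Il21 led at 428 ± 32.2 TPM with 469 bp opposite Gm12534, and Ifng was lowest with 2 counts in all. Il13 had 106, 39.0, 33.0 and 213 TPM in replicates 1 to 4, with a mean of 97.8 TPM, or 59.4 TPM without replicate 4. Il4 had 72.4, 67.9, 68.0 and 64.3 TPM. It too passed the chi-square test (adjusted p = 0.014), and its TMM-scaled log2 CPM deviated by -0.07, 0.30, 0.17 and -0.40. Of 15 known STAT5 or STAT6 targets, 9 had at least 1 TPM in every library. The 71 further genes as a whole had 36 at that level, and protein-coding genes 20.9%. Pim1, a kinase gene, had 32.4, 9.19, 12.4 and 26.2 TPM, Myc 29.2, 12.8, 6.21 and 30.4 TPM, and the repressor gene Gfi1 27.1, 11.7, 11.2 and 27.1 TPM. All 3 were high in replicates 1 and 4. Pim1 and Gfi1 have 468 and 101 bp opposite another gene. Prdm1, Ccl17 and Ccl22 had 0 counts in all 4 libraries, which on own-strand counts does not show that their RNA was absent.

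**Figure D5:**
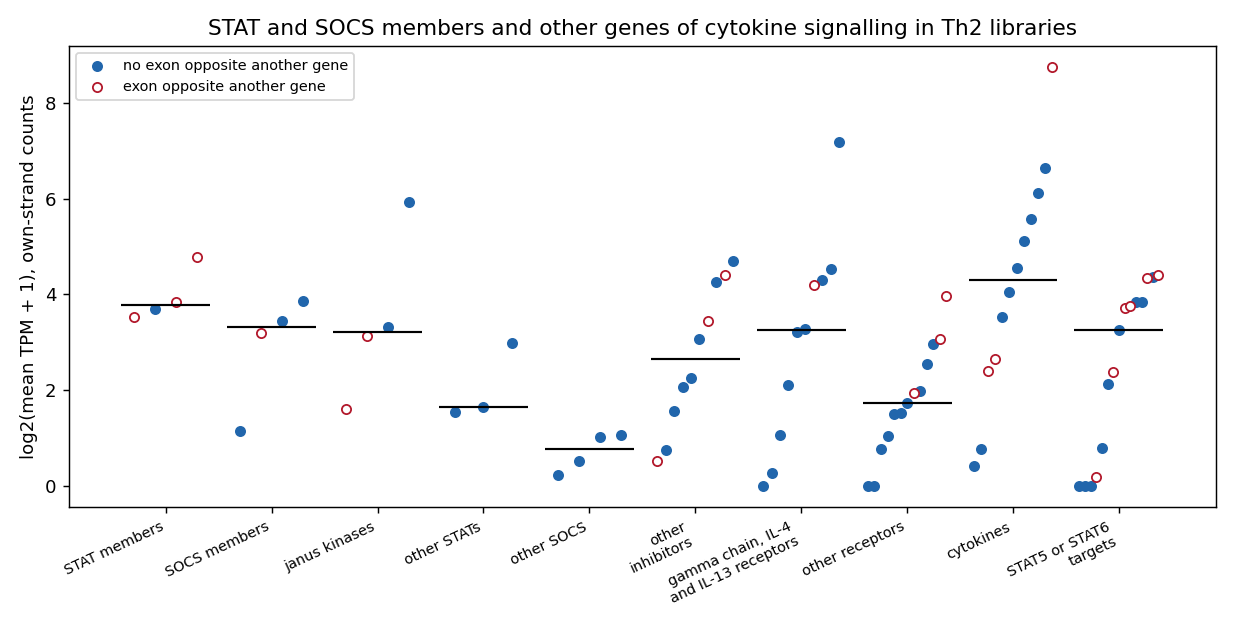
Mean own-strand level, log2(mean TPM + 1) over 4 Th2 libraries, of the 8 STAT and SOCS genes and of 71 further pathway genes by role. Open symbols are genes with an exon opposite another gene, and lines are the group medians. Il21, Il2ra and Jak2 stand highest in their groups, and the other SOCS genes all lie at or below 1.10 TPM.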

How the data were processed

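Gene-level RNA-seq was analysed for 4 Th2 libraries of 1 group. Raw fragment counts of each gene, as deposited, were used. Per the file headers, featureCounts v1.4.6-p4 made them from STAR alignments, over exons, with both ends mapped, strand option 1, GENCODE M13 and mm10. The strandedness of the library kit is not stated in the labels used here. Replicate numbers are those of the labels.

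Symbols came from GENCODE M21 by identifier (50376 of 50600 matched), and unnamed genes stayed in all tests. TPM and CPM were computed from the counts. Opposite exons shared at least 1 bp (bedtools 2.31.1). Pair ratios were tested by exact two-sided permutation of signs over the 4 libraries and variation with a chi-square test. Both were tried on simulated data. For the chi-square test these were Poisson counts, without the wider spread of these libraries, so they do not show how it behaves here. With 1 group there was no test between groups. TMM factors and dispersion came from edgeR 4.0.16, alternative factors from DESeq2 1.42.0 (R 4.3.3, Python 3.11.15). Deviations used a pseudocount of 0.5 CPM. Named genes were the 10 genes, genes opposite them, the 3 highest and the lowest of each pathway list, and the 3 nearest patterns of each gene. Il4ra, Prdm1, Ccl17 and Lifr were named after their values were seen. Members and lists were chosen with earlier results of these data known. Some genes of the lists are counted but not reported here by name.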

Additional observations from a re-analysis of the deposited data

Results flagged for a closer look

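In 3 cases 1 library lay far from the other 3 by Dixon's criterion for 4 values, which chance meets in about 1 of 20 groups. The criterion was applied to many gene levels, all pair ratios and the strand shares, so a few such cases can arise by chance. The log2 ratio of Socs2 to Socs1 was -0.25 in replicate 3, where Socs1 had 1 count, and -2.85 to -3.05 elsewhere. Pias3 had 1.74 TPM in replicate 2 from 9 counts, and Ifng had 1.32 TPM in replicate 1 from 2 counts, with 0 counts in the other libraries. With 0 in all other libraries, any level above 0 meets the criterion, so these cases carry no weight.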

How the results depend on the processing

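No paired analysis was possible because all 4 libraries belong to 1 group. The number of the 10 genes with at least 1 TPM in every library was 8 to 9 when each library was left out in turn, 8 under CPM and both size factors, and 9 with TPM over genes with no opposite exon, a total that raised all 10 mean levels, such as 8.69 TPM in place of 1.21 for Socs2 and 551 TPM in place of 61.4 for Nab2. The number of pairs with 1 sign in every library, 9 of 16, was 9 to 10 with a library left out. The share of Gm17041 was 98.9% to 99.2% and that of Nab2 71.6% to 79.9% with a library left out, and per kb the share of Gm17041 was 99.9%. Variation beyond Poisson was called in 5575 to 6589 genes and in 8 to 9 of the 10 genes with a library left out, in 11689 of 16612 with every counted gene tested, and in 6 genes and 0 of the 10 against the common dispersion. The pathway genes with at least 1 TPM in every library were 37 to 43 with a library left out and 23 of 53 without opposite exons, where fewer genes were tested, and their median was 2.828 to 5.499 TPM with a library left out.

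Pair ratios changed sign in 16 of 112 recomputed values, all in 6 pairs, and the cause was not tested. With 0.1 TPM as pseudocount Socs1 to Cish was -0.063, Socs3 to Cish -0.0080 and Socs3 to Socs1 0.055. With CPM Stat5a to Stat5b was 0.27, Stat6 to Stat5a -0.25, Socs1 to Cish -2.11, Socs3 to Cish -1.09 and Socs3 to Socs1 1.02. With a library left out, the ratio ran from -0.40 to 0.78 for Socs1 to Cish, from -0.23 to 0.21 for Socs3 to Cish, from -0.57 to 0.30 for Socs3 to Socs1, from -0.83 to 0.042 for Socs1 to Stat6 and from -0.18 to 0.065 for Stat5a to Stat5b. The low counts of Socs1 and Socs2 limit their precision, as do those of the other SOCS genes.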
